A study of Mus with 15 samples.

Results

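Wound skin of mice with type I diabetes, sampled as 5 libraries, was compared with uninjured skin of healthy mice, sampled as 5 further libraries. These 10 libraries were picked by their labels alone from the 15 of the series, and the remaining 5 libraries, wounds of healthy mice, enter only the last comparison. The uninjured skin carries a sham label, and both wound groups are described as wound models. Tissue was frozen whole, and polyadenylated RNA was sequenced in bulk. The sources used here do not give the strain, sex or age of the mice, how diabetes was induced, the kind of wound or the time after wounding. Uninjured diabetic skin was not analysed here, so the contributions of wounding and of diabetes to every difference below cannot be told apart. The labels leave unsaid whether any 2 libraries share an animal. The p-values therefore measure only the spread between these libraries. Libraries are called normal 1 to normal 5 and diabetic 1 to diabetic 5.

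Skin is built of a keratinising epidermis with hair follicles and sebaceous glands, a collagen-rich dermis with vessels, nerves and immune cells, a layer of fat and, in the mouse, a thin sheet of striated muscle. A cut first draws in neutrophils and then monocytes that become macrophages, while keratinocytes crawl from the wound edge under a coat of stress keratins. Fibroblasts and new vessels later rebuild the dermis. Wounds of diabetic animals are known for a drawn-out inflammatory phase, poor closure and weak deposition of matrix.

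Depth was alike in both groups, at 15693964 to 17777165 counted reads in normal skin and 15721077 to 16739898 in diabetic wounds. The 10 most abundant genes took 8.69 to 10% of the reads of normal skin and 4.63 to 6.36% of those of diabetic wounds. Levels are given in CPM, a gene's count scaled to the library's total, which compares a gene between libraries but not 1 gene with another. On the first principal component, which held 42.1% of the variance, normal skin lay between -75.7 and -41.8 and diabetic wounds between 15.2 and 119.2, with diabetic 5 farthest out. Markers of skin were present in both groups. The epidermal keratin Krt14 was at 1648 to 7754 CPM in normal skin and 710 to 12587 CPM in diabetic wounds, and the dermal proteoglycan Dcn at 1178 to 2428 and 1192 to 2187 CPM. Some libraries stood apart within their group. Diabetic 4 and diabetic 5 had the lowest levels of many epidermal genes, and diabetic 5 also had the lowest collagen and the highest neutrophil values. Normal 3, 4 and 5 carried hair shaft transcripts that normal 1 and 2 nearly lacked. In mean log2 CPM, normal 1 was highest of its group for the neutrophil, chemokine, cytokine and NF-kappaB lists below, but not for macrophage markers. By summed CPM this did not hold for the chemokine and cytokine lists. In bulk RNA, fewer cells of a type and less RNA per cell cannot be told apart, which holds for every cell type named below.

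Of 16162 genes with enough reads to test, 1430 (8.85%) passed an adjusted p of 0.05 in edgeR's quasi-likelihood test, 815 (5.04%) of them higher and 615 (3.81%) lower in diabetic wounds. Such genes are called higher or lower below, and rose and fell are used of them alone. The CPM ranges of the groups did not overlap for 1824 genes (11.3%), 1098 of which were also called. Of the called genes, 1131 had a fitted change of more than 2-fold, a log2 fold change beyond 1. The median log2 fold change of all genes tested was -0.003, against which the medians of the gene lists below can be read. With upper-quartile in place of TMM scaling, 639 genes were called higher and 727 lower, a share of 46.8% higher against 57%.

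The number of calls depended on single libraries. It was 433 without diabetic 2, 506 without normal 4, 598 without normal 1, 703 without normal 3, 724 without diabetic 5 and 785 without normal 2, and 330 genes (217 higher and 113 lower) were called whichever library was left out. For a called gene printed with its values, the libraries without which the call was lost are therefore named. For a called gene named without values, the number of these 10 fits that called it is given.

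**Figure D1:**
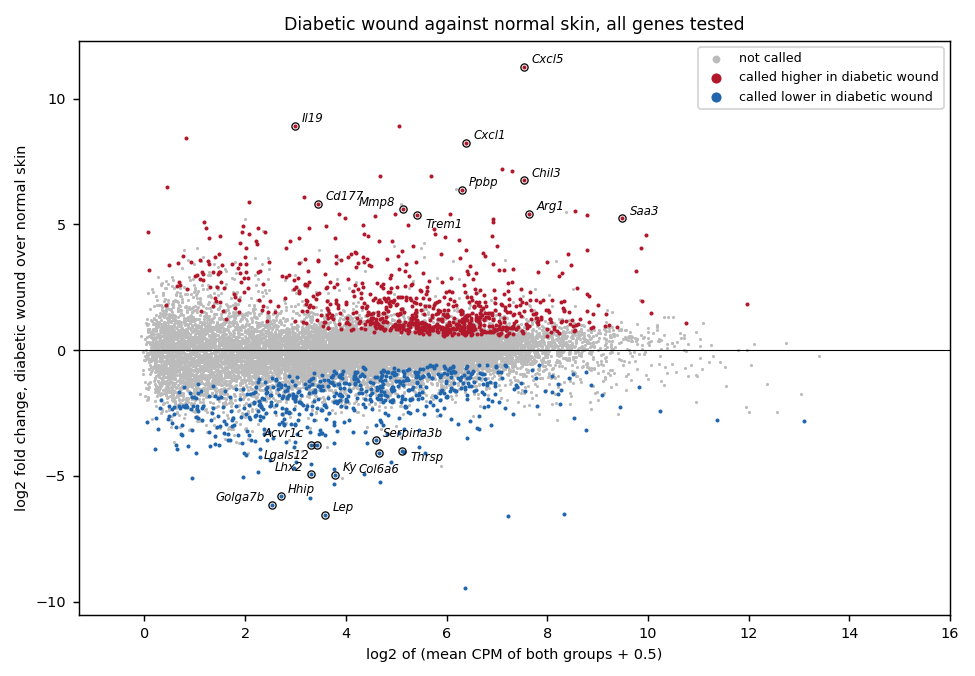
Each point is 1 of 16162 genes tested, with the log2 of its mean CPM plus 0.5 on the x axis and its fitted log2 fold change, diabetic wound over normal skin, on the y axis; red genes were called higher (815), blue genes lower (615), and the 20 leading genes are ringed. Cxcl5 lies highest among the ringed genes at 11.26 and Lep lowest at -6.55.

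The leading genes were the 10 largest rises and 10 largest falls among named genes whose groups did not overlap, whose higher group averaged at least 10 CPM and which were called in each of the 10 fits that left out 1 library. A total of 252 genes met these conditions. For a leading gene, groups that do not overlap and calls in all 10 fits were thus required by the choice. Chemokines, the cytokine Il19, neutrophil and macrophage products and an acute-phase protein made up the rises. Genes of fat cells, of the hair follicle, of muscle and of the matrix made up most of the falls.

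Cxcl5 (ENSMUSG00000029371, chromosome 5, 90759360 to 90761624, plus strand), a neutrophil-attracting chemokine, measured 0.172, 0.446, 0.115, 0 and 0 CPM in normal 1 to 5 and 163, 620.3, 87.8, 218 and 761 CPM in diabetic 1 to 5. Normal skin held almost none of it and every diabetic library held at least 87.8 CPM, with a log2 fold change of 11.26 ± 1.02 (SE, adjusted p = 0.00266). It was 12.199 without normal 2. Cxcl1 (ENSMUSG00000029380, chromosome 5, 90891241 to 90893115, plus strand), a second ligand of the same receptor, measured 1.55, 0, 1.15, 0 and 0 CPM in normal 1 to 5 and 24.3, 103, 8.64, 9.66 and 684 CPM in diabetic 1 to 5. It was at 0 in 3 normal libraries and far higher in diabetic 5 than in the other wounds. For Cxcl1, the log2 fold change of 8.24 ± 1.71 (SE, adjusted p = 0.0211) became 9.13 without normal 1 and 6.05 without diabetic 5. Ppbp (ENSMUSG00000029372, chromosome 5, 90768518 to 90770063, plus strand), the platelet chemokine precursor, measured 2.86, 2.61, 2.48, 0.675 and 0.609 CPM in normal 1 to 5 and 110.1, 237, 279, 93.5 and 53.8 CPM in diabetic 1 to 5. The groups did not overlap, and diabetic 5 was the lowest wound here. Ppbp had a log2 fold change of 6.38 ± 0.66 (SE, adjusted p = 0.00324).

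Il19 (ENSMUSG00000016524, chromosome 1, 130932656 to 130940115, minus strand), a cytokine of the interleukin 10 family, was tied to 1 library. It measured 0, 0, 0, 0.0563 and 0.0609 CPM in normal 1 to 5 and 1.55, 4.39, 1.54, 0.929 and 65.7 CPM in diabetic 1 to 5. There was no overlap, yet diabetic 5 stood far above the other wounds. For Il19, the log2 fold change of 8.92 ± 1.72 (SE, adjusted p = 0.0176) was 6.11 without diabetic 5. Over the groups, 2 reads in normal skin stood against 1234 in diabetic wounds, a ratio of 645 with an exact 95% interval from 178 to 5335 that covers counting error only.

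Chil3 (ENSMUSG00000040809, chromosome 3, 106147554 to 106167564, minus strand), a chitinase-like protein of macrophages and neutrophils, measured 7.16, 0.701, 8.65, 0.675 and 0 CPM in normal 1 to 5 and 150.5, 512, 108, 239 and 836 CPM in diabetic 1 to 5, a log2 fold change of 6.75 ± 1.21 (SE, adjusted p = 0.0133). No diabetic library came within 10-fold of the highest normal value, and the change was 7.41 without normal 3. Arg1 (ENSMUSG00000019987, chromosome 10, 24915221 to 24927484, minus strand), the arginase of alternatively activated macrophages, measured 11.4, 7.07, 8.36, 6.58 and 12 CPM in normal 1 to 5 and 201, 277, 754, 582 and 126 CPM in diabetic 1 to 5. Normal skin varied little, and diabetic 3 was highest. Arg1 had a log2 fold change of 5.42 ± 0.52 (SE, adjusted p = 0.00266). Saa3 (ENSMUSG00000040026, chromosome 7, 46711998 to 46715700, minus strand), an acute-phase apolipoprotein made in inflamed tissue, measured 26.2, 13.1, 105, 35.3 and 7.37 CPM in normal 1 to 5 and 791, 1299.5, 627, 1567 and 2729 CPM in diabetic 1 to 5. It was highest in diabetic 5 and, within normal skin, in normal 3. For Saa3, the log2 fold change of 5.25 ± 0.77 (SE, adjusted p = 0.0101) was 6.09 without normal 3.

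Neutrophil genes completed the rises. Mmp8 (ENSMUSG00000005800, chromosome 9, 7558456 to 7568485, plus strand), the neutrophil collagenase, had a log2 fold change of 5.59 ± 0.697 (SE, adjusted p = 0.00689), averaging 1.39 ± 1.09 CPM in normal skin and 67.5 ± 43.2 CPM in diabetic wounds (mean ± SD, n = 5). Trem1 (ENSMUSG00000042265, chromosome 17, 48232768 to 48246924, plus strand), a receptor that amplifies myeloid activation, averaged 1.96 ± 2.15 CPM in normal skin and 82.03 ± 91.6 CPM in diabetic wounds, a log2 fold change of 5.36 ± 1.13 (SE, adjusted p = 0.0221), or 4.39 without diabetic 5. Cd177 (ENSMUSG00000052212, chromosome 7, 24743983 to 24760311, minus strand), a neutrophil surface protein, averaged 0.356 ± 0.488 CPM in normal skin and 20.6 ± 27.7 CPM in diabetic wounds, a log2 fold change of 5.82 ± 1.25 (SE, adjusted p = 0.0231), or 6.43 without normal 1, 6.498 without normal 3 and 4.51 without diabetic 5. Diabetic 1 was the lowest wound library for all 3 genes.

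Lep (ENSMUSG00000059201, chromosome 6, 29060220 to 29073877, plus strand), the fat cell hormone leptin, fell most. It measured 22.1, 26.7, 23.9, 16.8 and 24.6 CPM in normal 1 to 5 and 0, 0, 1.17, 0 and 0 CPM in diabetic 1 to 5. Reads in diabetic wounds came from diabetic 3 alone, so the fitted log2 fold change of -6.55 ± 1.07 (SE, adjusted p = 0.0108) rests on that library and was -11.56 without diabetic 3. With so few reads the fitted value is no measure of the size of the fall.

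Of the other falls, 3 belong to fat cells or fat synthesis. Thrsp (ENSMUSG00000035686, chromosome 7, 97412938 to 97417730, minus strand), a regulator of fatty acid synthesis, measured 81.9, 79.3, 71.9, 40.9 and 46.1 CPM in normal 1 to 5 and 1.67, 1.08, 7.16, 9.66 and 0.657 CPM in diabetic 1 to 5. Diabetic 3 and 4 were above the other wounds, and the groups did not overlap. Thrsp had a log2 fold change of -3.99 ± 0.699 (SE, adjusted p = 0.0125), or -4.58 without diabetic 4. Lgals12 (ENSMUSG00000024972, chromosome 19, 7596660 to 7607193, minus strand), a galectin of fat cells, averaged 19.05 ± 5.47 CPM in normal skin and 1.38 ± 0.913 CPM in diabetic wounds, a log2 fold change of -3.77 ± 0.51 (SE, adjusted p = 0.00735). Acvr1c (ENSMUSG00000026834, chromosome 2, 58267453 to 58357895, minus strand), the activin receptor of fat cells, averaged 17.5 ± 8.65 CPM in normal skin and 1.304 ± 0.615 CPM in diabetic wounds, a log2 fold change of -3.75 ± 0.49 (SE, adjusted p = 0.00718).

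Hair follicle genes were among the falls as well. Lhx2 (ENSMUSG00000000247, chromosome 2, 38339281 to 38369733, plus strand), a transcription factor of follicle stem cells, measured 8.301, 17.8, 9.63, 14.7 and 40.1 CPM in normal 1 to 5 and 1.55, 0.318, 0.74, 0.124 and 0.119 CPM in diabetic 1 to 5. Normal 5 was highest and diabetic 1 was the highest wound. For Lhx2, the log2 fold change of -4.93 ± 0.76 (SE, adjusted p = 0.0102) was -5.73 without diabetic 1. Hhip (ENSMUSG00000064325, chromosome 8, 79965851 to 80058006, minus strand), a target and inhibitor of Hedgehog signalling, measured 1.32, 4.33, 2.36, 14.3 and 37.2 CPM in normal 1 to 5 and 0.309, 0.127, 0.185, 0.186 and 0.179 CPM in diabetic 1 to 5. All wounds were at 0.309 CPM or less while normal skin spread widely. Hhip had a log2 fold change of -5.81 ± 0.96 (SE, adjusted p = 0.0111), or -4.76 without normal 5. Golga7b (ENSMUSG00000042532, chromosome 19, 42247574 to 42270348, plus strand), a partner of protein palmitoylation enzymes that is not assigned to the follicle here, was likewise highest in normal 5. It measured 1.49, 3.25, 4.496, 10.2 and 33.02 CPM in normal 1 to 5 and 0, 0.0636, 0.308, 0.124 and 0.179 CPM in diabetic 1 to 5, with a log2 fold change of -6.15 ± 1.01 (SE, adjusted p = 0.0109), or -5.09 without normal 5.

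Ky (ENSMUSG00000035606, chromosome 9, 102505750 to 102546239, plus strand), a protein needed for muscle growth and the neuromuscular junction, averaged 25.9 ± 23.7 CPM in normal skin and 0.827 ± 0.14 CPM in diabetic wounds, a log2 fold change of -4.97 ± 0.75 (SE, adjusted p = 0.0101), or -4.35 without normal 2. Col6a6 (ENSMUSG00000043719, chromosome 9, 105687809 to 105828160, minus strand), a chain of microfibrillar collagen VI, averaged 46.98 ± 16.2 CPM in normal skin and 2.73 ± 1.97 CPM in diabetic wounds, a log2 fold change of -4.096 ± 0.701 (SE, adjusted p = 0.0119). Serpina3b (ENSMUSG00000066364, chromosome 12, 104127996 to 104139545, plus strand), a serine protease inhibitor, averaged 43.8 ± 16.9 CPM in normal skin and 3.57 ± 3.97 CPM in diabetic wounds, a log2 fold change of -3.59 ± 0.705 (SE, adjusted p = 0.0187), or -4.52 without diabetic 1.

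**Figure D2:**
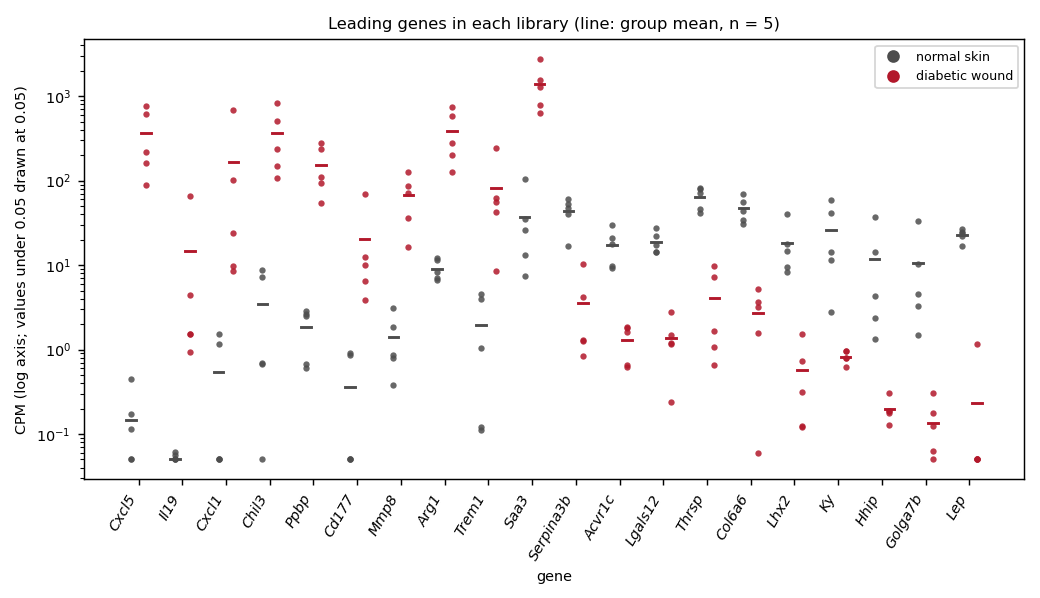
CPM on a log axis in each library for the 20 leading genes, ordered by fitted change from Cxcl5 to Lep; grey points are normal skin, red points diabetic wounds, lines the group means (n = 5), and values under 0.05 are drawn at 0.05. The point clouds of the groups are apart for every gene shown, which the choice of the genes required.

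Genes were also counted in 38 lists of skin cell types and pathways. Of their 849 entries, 844 matched a gene of the table, and only members with enough reads in enough libraries were tested. Members too low to test are named where the result turns on them. Counts are of tested members and no list has a test of its own. A change printed with its SE is a log2 fold change from edgeR's quasi-likelihood test, and called members named without values were chosen after their values were seen. A count from the edgeR fit with no library left out can be read against the 5.04% of all genes called higher and the 3.81% called lower. Counts from DESeq2 below have another background, 1710 genes called higher and 1569 lower of 16162 tested. Without diabetic 4 and 5 the background was 351 higher and 218 lower of 16982. Fits that left out a single library also differed in their calls over all genes, so their counts cannot be read against 5.04% and 3.81%.

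**Figure D3:**
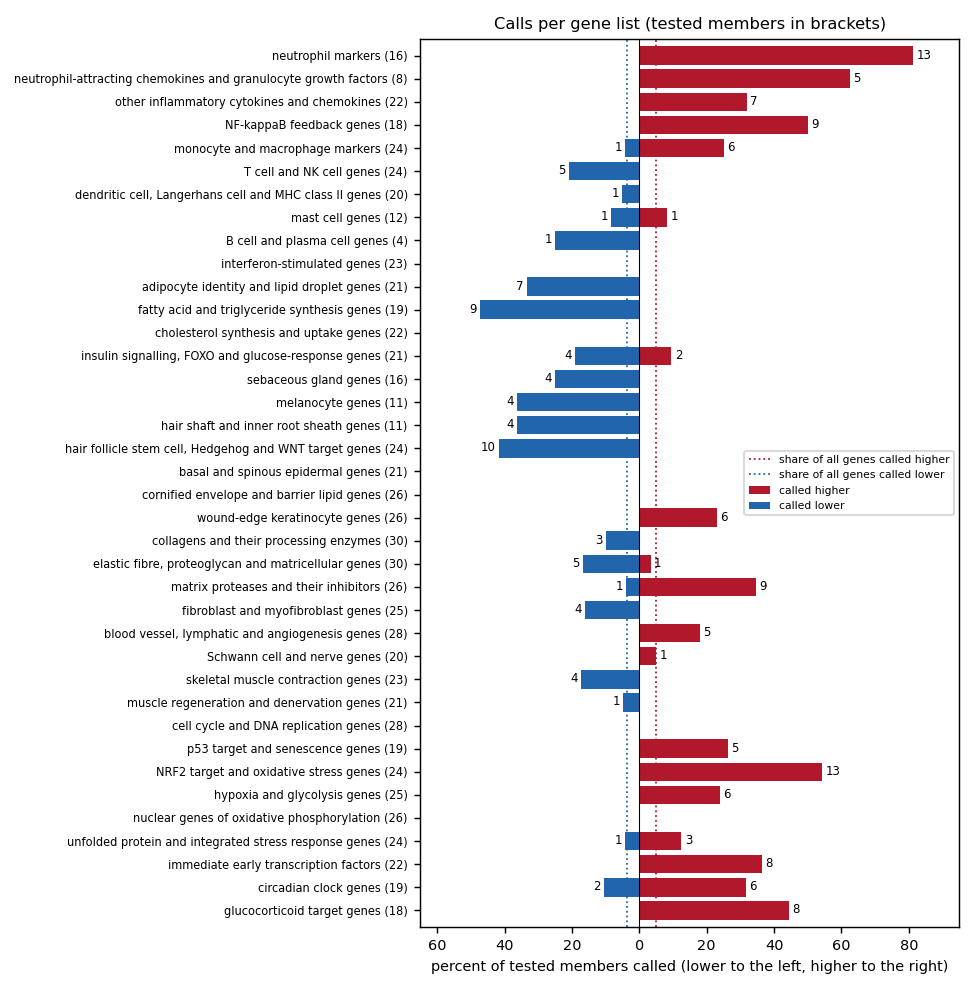
Percent of tested members called higher (red, to the right) and lower (blue, to the left) in diabetic wounds for each of the 38 lists, with the number tested in brackets; dotted lines mark the shares of all genes, 5.04% and 3.81%. The neutrophil list reaches farthest to the right, with 13 of 16 members, and fatty acid synthesis farthest to the left, with 9 of 19.

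Neutrophil genes rose almost as a block. Of 16 tested neutrophil markers, 13 rose and none fell, with a median log2 fold change of 4.51. From 8 to 13 rose with 1 library left out (8 without normal 2). S100a9, a calcium-binding protein that fills neutrophil cytosol, measured 129, 29.1, 40.2, 50.8 and 15.2 CPM in normal 1 to 5 and 342, 732, 1225, 394 and 1445 CPM in diabetic 1 to 5. All wounds were above all normal libraries, of which normal 1 was highest. For S100a9, the log2 fold change of 3.97 ± 0.65 (SE, adjusted p = 0.0108) was 4.63 without normal 1. Its partner S100a8 changed by 3.38 ± 0.699 (SE, adjusted p = 0.0209) and was not called without normal 4 (adjusted p = 0.0512). The chemokine receptor Cxcr2 measured 9.79, 10.5, 18.9, 17.1 and 21.7 CPM in normal 1 to 5 and 22.6, 62.8, 57.4, 65.4 and 101 CPM in diabetic 1 to 5, a smaller log2 fold change of 2.01 ± 0.36 (SE, adjusted p = 0.0139), with the groups apart and diabetic 1 lowest among wounds. The lectin receptor Clec4d changed by 4.55 ± 0.71 (SE, adjusted p = 0.0102) and the formyl peptide receptors Fpr1 and Fpr2 by 4.52 ± 0.796 (SE, adjusted p = 0.0127) and 3.83 ± 0.704 (SE, adjusted p = 0.0152). The granule genes Mpo, Elane, Ltf and Camp, made mostly in the bone marrow, had too few reads to test.

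Neutrophil-attracting chemokines and granulocyte growth factors gave 5 rises and no falls among 8 tested members, with a median of 6.09. From 4 to 6 rose with 1 library left out. Besides Cxcl5, Cxcl1 and Ppbp these were Cxcl3 (log2 fold change 7.21 ± 1.71 (SE, adjusted p = 0.0293), called, with 1 library left out, only without normal 1 or diabetic 1, 3 or 4 (otherwise adjusted p = 0.0512 to 0.0598)) and Pf4, the platelet factor that macrophages also make. Pf4 measured 78.5, 15.9, 120.2, 76.6 and 42.1 CPM in normal 1 to 5 and 545, 615, 676, 609.8 and 338 CPM in diabetic 1 to 5, a log2 fold change of 3.08 ± 0.46 (SE, adjusted p = 0.0101), with no overlap and the lowest wound in diabetic 5. Cxcl2 was not called, at 65.4, 4.84, 0.0576, 0.731 and 1.34 CPM in normal 1 to 5 and 67.3, 567, 282, 152 and 2179.9 CPM in diabetic 1 to 5. Its groups were apart by a narrow margin, since normal 1 nearly reached diabetic 1, and its log2 fold change was 5.48 ± 1.64 (SE, adjusted p = 0.0575), or 8.52 without normal 1 and 4.19 without diabetic 5.

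Among 22 other inflammatory cytokines and enzymes, 7 rose and none fell (median 1.85). From 1 to 8 rose with 1 library left out (1 without normal 4, 2 without normal 3 or 5 or diabetic 2 or 5, 3 without normal 2), and DESeq2 called 12 higher. The monocyte chemokine Ccl2 measured 8.42, 1.98, 8.01, 2.14 and 2.07 CPM in normal 1 to 5 and 12.4, 52.2, 28.9, 21 and 185 CPM in diabetic 1 to 5. Diabetic 5 was highest and the log2 fold change of 3.74 ± 0.81 (SE, adjusted p = 0.0237) was 2.67 without diabetic 5, not called without normal 2 or 4 (adjusted p = 0.0519 to 0.0552). Il6, the cytokine that drives the acute-phase response, had a log2 fold change of 5.26 ± 1.32 (SE, adjusted p = 0.0353) with overlapping groups, and it was called, with 1 library left out, only without normal 2 or diabetic 1, 3 or 4 (otherwise adjusted p = 0.0545 to 0.0754). The alarm cytokine Il1b was not called, at 85.7, 13.7, 6.17, 1.8 and 2.802 CPM in normal 1 to 5 and 32.6, 199.7, 235, 126 and 725 CPM in diabetic 1 to 5. Normal 1 exceeded diabetic 1. Il1b had a log2 fold change of 3.57 ± 1.13 (SE, adjusted p = 0.0683), or 5.41 without normal 1 and 2.74 without diabetic 5. Tnf was not called either, at 2.82 ± 0.996 (SE, adjusted p = 0.0923). The cytokines Il17a, Il20, Il22 and Il24 did not pass the filter. Il24 had 4 reads in normal skin and 279 in diabetic wounds, most of them in diabetic 3, and with all genes kept its adjusted p in edgeR was 0.0304.

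Genes that NF-kappaB switches on to limit its own activity rose in 9 of 18 cases, with none lower, a median of 1.27 and 18 positive changes. From 5 to 10 rose with 1 library left out (5 without normal 2 or 4 or diabetic 2). Nfkbia, the NF-kappaB inhibitor, measured 82.4, 80.5, 80.6, 43.7 and 51.3 CPM in normal 1 to 5 and 257, 332, 173, 191 and 717 CPM in diabetic 1 to 5. No wound overlapped normal skin, and diabetic 5 was highest. Nfkbia had a log2 fold change of 2.31 ± 0.41 (SE, adjusted p = 0.0133). The deubiquitinase Tnfaip3 changed by 3.08 ± 0.596 (SE, adjusted p = 0.0178), or 2.21 without diabetic 5. The adhesion molecule Icam1 changed by 1.31 ± 0.26 (SE, adjusted p = 0.0192) and the apoptosis inhibitor Birc3 by 1.36 ± 0.28 (SE, adjusted p = 0.0211).

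Most macrophage genes had positive changes, but few were called. Of 24 tested, 23 changes were positive, 6 genes rose and 1 fell, with a median of 0.82. From 5 to 6 rose with 1 library left out, and DESeq2 called 10 higher. The general markers Adgre1 and Csf1r, the latter the receptor that macrophages need to survive, were not called, with log2 fold changes of 0.14 ± 0.61 (SE, adjusted p = 0.904) and 0.08 ± 0.503 (SE, adjusted p = 0.93). Itgam, an integrin chain of all myeloid cells, measured 22.8, 14.5, 61.05, 36.2 and 13.5 CPM in normal 1 to 5 and 130.4, 153, 167, 182 and 158 CPM in diabetic 1 to 5, a log2 fold change of 2.43 ± 0.39 (SE, adjusted p = 0.0105) with no overlap. The scavenger receptor Msr1 changed by 2.33 ± 0.39 (SE, adjusted p = 0.0112). Retnla, a product of alternatively activated macrophages like Arg1 and Chil3, fell while those rose. It measured 164, 5.22, 110.3, 61.3 and 51.6 CPM in normal 1 to 5 and 8.97, 14.5, 4.19, 6.26 and 8.72 CPM in diabetic 1 to 5. Normal 2 lay below 4 wounds. For Retnla, the log2 fold change of -3.18 ± 0.69 (SE, adjusted p = 0.0238) was not called without normal 1 or diabetic 5 (adjusted p = 0.0504 to 0.0507).

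All 24 tested T cell and NK cell genes had negative changes, with a median of -1.52, and 5 fell. From 1 to 7 fell with 1 library left out (1 without normal 1, 2, 3 or 4 or diabetic 2 or 5, 2 without normal 5 or diabetic 4, 3 without diabetic 1), and DESeq2 called 14 lower. Cd3e, a chain of the T cell receptor complex, measured 1.603, 4.97, 3.23, 2.87 and 7.07 CPM in normal 1 to 5 and 0.371, 0.318, 0.432, 0.186 and 0.478 CPM in diabetic 1 to 5. Every wound was under every normal library. For Cd3e, the log2 fold change of -3.42 ± 0.51 (SE, adjusted p = 0.0101) held in every fit that left out 1 library. Cd4, the helper T cell coreceptor, measured 6.24, 9.37, 9.86, 32.2 and 8.16 CPM in normal 1 to 5 and 2.35, 0.509, 4.44, 1.12 and 0.119 CPM in diabetic 1 to 5. The groups were apart, but the log2 fold change of -2.92 ± 0.79 (SE, adjusted p = 0.0442) was called, with 1 library left out, only without diabetic 3 (otherwise adjusted p = 0.0556 to 0.103), and it was -2.28 without normal 4 and -3.65 without diabetic 3. Also lower were the cytokine receptor chain Il2rb (log2 fold change -1.45 ± 0.37, adjusted p = 0.0354) and the transcription factor Gata3 (log2 fold change -2.31 ± 0.65, adjusted p = 0.0484), which keratinocytes also express. Il2rb was called, with 1 library left out, only without diabetic 1 or 3 (otherwise adjusted p = 0.0523 to 0.0841). Gata3 was called, with 1 library left out, only without diabetic 1, 3 or 4 (otherwise adjusted p = 0.0592 to 0.106). Cd8a, Foxp3, Ctla4 and Gzmb were too low to test. The chain Trdc of gamma-delta T cells was not called, at -1.56 ± 0.48 (SE, adjusted p = 0.0617).

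Other lymphoid and antigen-presenting lists had few calls. Of 20 dendritic cell, Langerhans cell and MHC class II genes, 1 fell, the cross-presenting dendritic cell receptor Xcr1 (log2 fold change -1.81 ± 0.38, adjusted p = 0.0218), not called without diabetic 2 (adjusted p = 0.0501). The median was -0.71. From 0 to 4 fell with 1 library left out (0 without diabetic 2, 2 without diabetic 4, 4 without diabetic 3), and DESeq2 called 6 lower. The Langerhans cell lectin Cd207 was not called, at -2.13 ± 0.63 (SE, adjusted p = 0.0548), nor was the MHC class II chain H2-Aa, at -0.78 ± 0.37 (SE, adjusted p = 0.187). Of 11 B cell and plasma cell genes only 4 had enough reads, and 1 fell, the immunoglobulin heavy chain Ighm (log2 fold change -2.73 ± 0.77, adjusted p = 0.0485), called, with 1 library left out, only without normal 5 or diabetic 3 (otherwise adjusted p = 0.069 to 0.106). Its change was -1.92 without normal 3. Of 12 mast cell genes, 1 rose and 1 fell, with a median of 0.08. The riser was Hdc, the histamine-forming enzyme, which neutrophils also make (log2 fold change 3.35 ± 0.74, adjusted p = 0.0241), not called without normal 4 or diabetic 2 (adjusted p = 0.0509 to 0.0575). The receptor Mrgprb2 fell (log2 fold change -1.66 ± 0.39, adjusted p = 0.0279), not called without normal 1, 3 or 4 or diabetic 2 or 5 (adjusted p = 0.0504 to 0.0652). The mast cell proteases Cpa3 and Cma1 were not called, at 0.19 ± 0.62 (SE, adjusted p = 0.858) and 0.15 ± 0.63 (SE, adjusted p = 0.896).

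No interferon-stimulated gene was called of 23 tested, with a median of 0.08, and none had an unadjusted p under 0.05 in edgeR or was called by DESeq2. Isg15 measured 11.3, 8.22, 3.98, 11.6 and 4.33 CPM in normal 1 to 5 and 5.81, 4.52, 31.5, 5.39 and 10.3 CPM in diabetic 1 to 5. The groups overlapped, with diabetic 3 highest. Isg15 had a log2 fold change of 0.55 ± 0.57 (SE, adjusted p = 0.55).

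**Figure D4:**
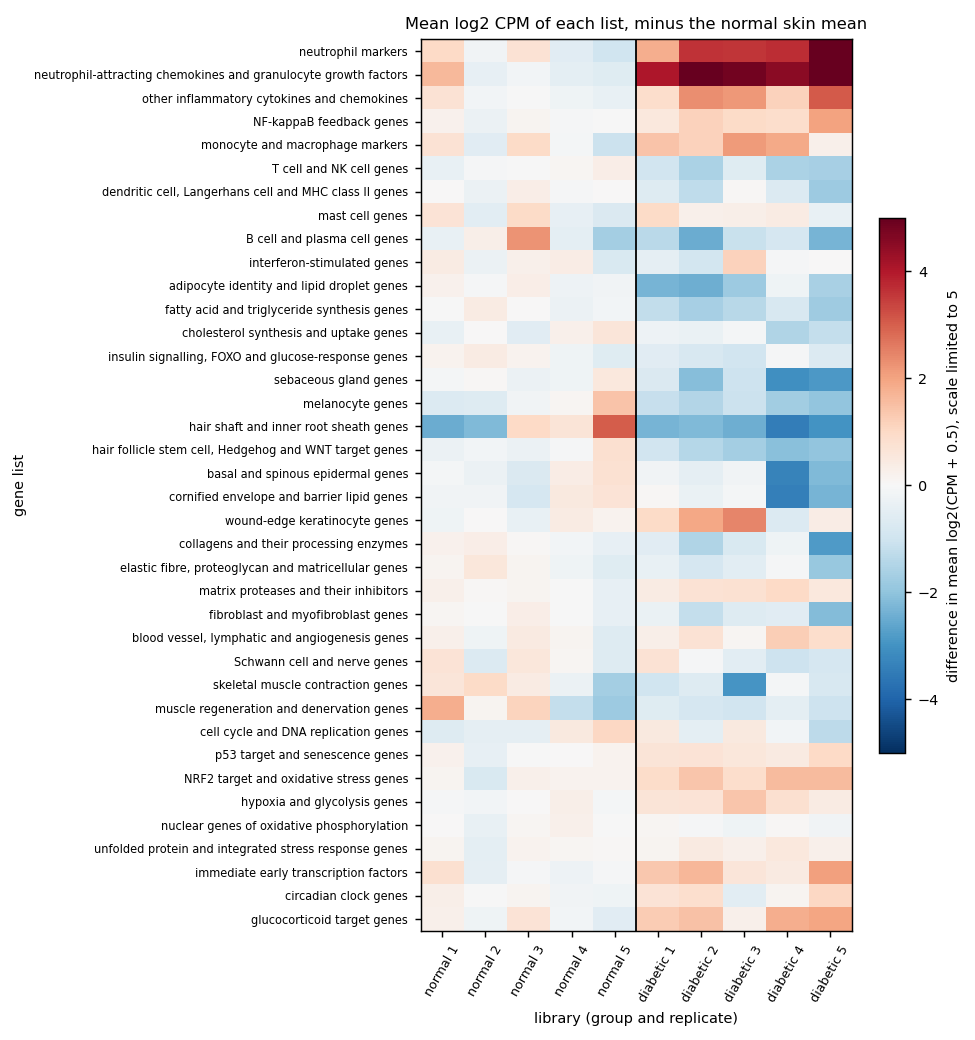
Mean log2(CPM + 0.5) of the tested members of each of the 38 lists (rows) in each of the 10 libraries (columns), less the mean of the 5 normal libraries; red is higher, blue lower, and the colour scale stops at 5. The neutrophil marker row is red in all 5 wounds and darkest in diabetic 5, the rows of basal and spinous and of cornified epidermal genes are deepest blue in diabetic 4 and 5, and the hair shaft row splits normal 1 and 2 from normal 3, 4 and 5.

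Fat cell genes were among the falls. Of 21 adipocyte genes 7 fell and none rose, with a median of -1.28. From 5 to 12 fell with 1 library left out (12 without diabetic 4). Without diabetic 4 and 5 together 14 fell, at a median of -2.11. Plin1, which coats lipid droplets, measured 180.2, 155, 214, 98.7 and 121 CPM in normal 1 to 5 and 4.58, 4.96, 27.7, 28.6 and 2.51 CPM in diabetic 1 to 5. All wounds were below all normal libraries, with diabetic 3 and 4 highest. Plin1 had a log2 fold change of -3.496 ± 0.67 (SE, adjusted p = 0.0174). Adipoq, the hormone adiponectin, was not called, at 180.1, 121, 177, 85.2 and 85.7 CPM in normal 1 to 5 and 10.7, 5.98, 20.4, 183 and 81.8 CPM in diabetic 1 to 5. Diabetic 4 exceeded every normal library. For Adipoq, the log2 fold change of -1.12 ± 0.77 (SE, adjusted p = 0.353) was -2.11 without diabetic 4, and -3.37 (adjusted p = 0.0164) without diabetic 4 and 5. Car3, an abundant carbonic anhydrase of fat and muscle, changed by -2.42 ± 0.48 (SE, adjusted p = 0.0188). The beta-adrenergic receptor Adrb3, the glycerol channel Aqp7 and the lipase Lipe, all of fat cells, completed the falls, called in 9, 9 and 2 of the 10 fits that left out 1 library.

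Fatty acid and triglyceride synthesis had 9 falls of 19, the largest share of the 38 lists in this fit but not with DESeq2 or without diabetic 4 and 5, with none higher and a median of -1.02. From 6 to 12 fell with 1 library left out. Fasn, the fatty acid synthase, measured 884, 2259, 1025, 654 and 929 CPM in normal 1 to 5 and 252, 240.1, 173, 177 and 346 CPM in diabetic 1 to 5. No wound reached any normal library, of which normal 2 was highest. Fasn had a log2 fold change of -2.28 ± 0.38 (SE, adjusted p = 0.0112). Acaca, which makes its substrate malonyl-CoA, changed by -1.27 ± 0.24 (SE, adjusted p = 0.0158), and Dgat2 and Acsl1, which build triglyceride and activate fatty acids, by -1.61 ± 0.32 (SE, adjusted p = 0.0193) and -1.12 ± 0.19 (SE, adjusted p = 0.0119). Pnpla3, a lipid droplet enzyme induced with fat synthesis, measured 18.7, 21.3, 22.1, 15.9 and 22.4 CPM in normal 1 to 5 and 3.28, 1.84, 2.47, 1.55 and 0.956 CPM in diabetic 1 to 5. Every wound was far below every normal library. Pnpla3 had a log2 fold change of -3.29 ± 0.35 (SE, adjusted p = 0.00324).

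Cholesterol synthesis and uptake gave no call among 22 genes (median -0.56, -0.15 without diabetic 4 and 5), though 8 reached an unadjusted p under 0.05 (edgeR) and DESeq2 called 6 lower.

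The insulin, FOXO and glucose-response list was mixed, with 2 rises and 4 falls of 21 and a median of -0.34. From 1 to 6 fell with 1 library left out (1 without diabetic 2, 2 without normal 1, 2, 3 or 4 or diabetic 1 or 5), and from 0 to 3 rose (0 without diabetic 2, 1 without normal 1, 2, 3, 4 or 5 or diabetic 1 or 5), and DESeq2 called 4 higher. Igfbp5, a binding protein of insulin-like growth factors made by fibroblasts and muscle, measured 1210.2, 1006, 854, 536 and 319 CPM in normal 1 to 5 and 153, 33.4, 135, 86.2 and 21.7 CPM in diabetic 1 to 5. No overlap was seen, and diabetic 2 and 5 were lowest. For Igfbp5, the log2 fold change of -3.19 ± 0.59 (SE, adjusted p = 0.0156) held in every fit. Igf1, the docking protein Irs1 and the gluconeogenic enzyme Pck1 also fell, called in 2, 9 and 3 of the 10 fits. The related Igfbp3 rose (log2 fold change 1.59 ± 0.43, adjusted p = 0.0437) but was called, with 1 library left out, only without diabetic 3 or 4 (otherwise adjusted p = 0.0509 to 0.102). Arrdc4, a glucose-induced brake on glucose uptake, rose (log2 fold change 1.39 ± 0.29, adjusted p = 0.021) and was not called without diabetic 2 (adjusted p = 0.0515), while its relative Txnip, also induced by glucose, was not called, at 0.91 ± 0.403 (SE, adjusted p = 0.157). The insulin receptor Insr and the insulin-regulated transporter Slc2a4 were not called, at 0.07 ± 0.31 (SE, adjusted p = 0.896) and -0.94 ± 0.62 (SE, adjusted p = 0.333).

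Some hair follicle genes fell, of signalling and of the growing shaft. Of 24 follicle stem cell, Hedgehog and WNT target genes 10 fell, all 24 changes were negative and the median was -1.42. From 4 to 9 fell with 1 library left out (4 without normal 2 or diabetic 2, 5 without normal 1, 4 or 5 or diabetic 5, 6 without normal 3). Wnt10b, a WNT ligand of growing follicles, changed by -3.62 ± 0.67 (SE, adjusted p = 0.0156). Lgr5, a marker of follicle stem cells, measured 19.1, 30.9, 10.8, 9.11 and 23.8 CPM in normal 1 to 5 and 5.88, 5.34, 4.997, 1.18 and 2.93 CPM in diabetic 1 to 5. The groups did not overlap. For Lgr5, the log2 fold change of -2.19 ± 0.49 (SE, adjusted p = 0.0242) was not called without normal 1 or 2 or diabetic 2 or 5 (adjusted p = 0.0507 to 0.0528). The Hedgehog effectors Gli1 and Gli2, the WNT effector Lef1, the placode receptor Edar and the transcription factor Tbx1 also fell, each called in 1 to 4 of the 10 fits that left out 1 library. The ligand Shh and the receptor Ptch1 were not called, at -0.53 ± 1.199 (SE, adjusted p = 0.794) and -0.79 ± 0.38 (SE, adjusted p = 0.19).

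Hair shaft and inner root sheath transcripts ranged widely, and normal skin itself split. Krt27, an inner root sheath keratin, measured 0.172, 4.14, 197, 77.97 and 534 CPM in normal 1 to 5 and 0.742, 0.191, 0.123, 0 and 0 CPM in diabetic 1 to 5. Normal 3, 4 and 5 were at 78.0 CPM or more, and normal 1 lay under diabetic 1. For Krt27, the log2 fold change of -9.47 ± 1.89 (SE, adjusted p = 0.019) was not called without diabetic 2 (adjusted p = 0.0501) and was -8.29 without normal 5 and -10.82 without diabetic 1. Tchh, the trichohyalin that hardens the sheath, measured 3.61, 19.7, 734, 299.5 and 2108 CPM in normal 1 to 5 and 4.39, 8.14, 9.75, 4.27 and 6.87 CPM in diabetic 1 to 5. Normal 1 was below every wound, so the groups overlapped. For Tchh, the log2 fold change of -6.502 ± 1.39 (SE, adjusted p = 0.023) was not called without diabetic 2 or 5 (adjusted p = 0.0503 to 0.0555). Of 26 entries, 11 were tested and 4 fell, a number that was 0 to 4 with 1 library left out (0 without diabetic 2, 1 without diabetic 5, 2 without normal 3, 4 or 5 or diabetic 1 or 4), and 8 with DESeq2. The median over those that passed the filter was -4.01. The filter asked for reads in enough libraries, so this median leaves out members high in some normal libraries but nearly absent elsewhere. Krt71, for example, was at 447, 288 and 1895 CPM in normal 3, 4 and 5 and had 1 read over the wounds.

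Of the hair keratins that did not pass the filter, most had 0 or 1 read over the 5 diabetic wounds, and Krt81 and Krt86 had 9 and 26. Krt25 had 28069 reads over the normal libraries and 0 over the wounds, at 0.0572, 2.74, 256, 212 and 1207 CPM in normal 1 to 5. Against a floor of 3 reads over the group, 0.0370 CPM, its summed level was at least 8946-fold lower, or at least 3264-fold lower without normal 5, but with all genes kept its adjusted p in edgeR was 0.185. Krt71 had 44043 reads against 1, with an adjusted p of 0.0489 in that fit. Krt31, Krt33a, Krt33b and Krt35 of the hair cortex were at 0 reads in the wounds against 1076 to 5182 in normal skin, and their adjusted p was 0.185 to 0.221. Closely related keratins can share reads, and the sources used here do not say how the counting split them.

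The other appendages followed. Of 16 sebaceous gland genes 4 fell, with a median of -1.93 (-1.28 without diabetic 4 and 5). From 1 to 5 fell with 1 library left out (1 without normal 3 or diabetic 2, 2 without normal 1, 4 or 5 or diabetic 5), and DESeq2 called 9 lower. Scd3, a desaturase of sebocytes, measured 109.6, 41.5, 65.1, 25.6 and 71.5 CPM in normal 1 to 5 and 11.01, 3.82, 5.06, 9.29 and 6.21 CPM in diabetic 1 to 5. The groups were far apart and the log2 fold change was -3.13 ± 0.43 (SE, adjusted p = 0.00768), though Scd3 is close in sequence to Scd1 and could share its reads. The wax ester enzyme Awat1 changed by -2.37 ± 0.65 (SE, adjusted p = 0.0444), or -3.12 without diabetic 1, and was called, with 1 library left out, only without diabetic 1 (otherwise adjusted p = 0.0512 to 0.0999). The acyltransferase Dgat2l6 changed by -2.51 ± 0.64 (SE, adjusted p = 0.0363) and the desaturase Fads2 by -1.101 ± 0.24 (SE, adjusted p = 0.0241). The former was called, with 1 library left out, only without normal 2 or diabetic 3 or 4 (otherwise adjusted p = 0.0607 to 0.0769), the latter not called without normal 3 or diabetic 2 (adjusted p = 0.0543 to 0.0601). Mc5r, a receptor that drives sebum, was not called, at -2.34 ± 0.91 (SE, adjusted p = 0.117).

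Pigment genes fell in 4 of 11 tested cases (median -2.59). From 0 to 4 fell with 1 library left out (0 without diabetic 2, 1 without normal 4, 2 without diabetic 5). Dct, a melanin-synthesis enzyme, measured 7.21, 18.7, 11.99, 29.5 and 127 CPM in normal 1 to 5 and 2.41, 1.14, 2.34, 0.248 and 0 CPM in diabetic 1 to 5. Normal 5 was highest by far, and no wound reached a normal library. For Dct, the log2 fold change of -4.92 ± 1.07 (SE, adjusted p = 0.0237) was not called without diabetic 2 (adjusted p = 0.0582) and was -3.76 without normal 5. The related enzyme Tyrp1 changed by -4.75 ± 1.08 (SE, adjusted p = 0.0257), or -3.24 without normal 5 and -5.33 without diabetic 3, the melanosome protein Pmel by -3.69 ± 0.87 (SE, adjusted p = 0.0289), or -2.17 without normal 5, and the channel Trpm1 by -3.65 ± 0.93 (SE, adjusted p = 0.0363), or -2.06 without normal 5. Tyrp1 was not called without normal 4 or diabetic 2 (adjusted p = 0.0504 to 0.0642), Pmel not called without normal 4 or diabetic 2 or 5 (adjusted p = 0.0512 to 0.068) and Trpm1 called, with 1 library left out, only without normal 1, 2 or 3 (otherwise adjusted p = 0.0523 to 0.0798). The key enzyme Tyr was not called, at -4.08 ± 1.29 (SE, adjusted p = 0.0686), nor was Mlana, at -2.59 ± 0.98 (SE, adjusted p = 0.109). Oca2, Slc45a2, Slc24a5, Gpr143 and Mc1r did not pass the filter. Each had more reads in normal skin than in the wounds and was highest in normal 5. Slc45a2 had 215 reads against 1, and with all genes kept its adjusted p in edgeR was 0.00768. The others were at 0.0575 to 0.233 in that fit.

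The epidermis proper had no called gene, and its libraries disagreed. None of 21 basal and spinous genes was called (median -0.74), though 6 reached an unadjusted p under 0.05 (edgeR) and DESeq2 called 4 lower. Krt14, the basal keratin, measured 2177, 2272, 1648, 7754 and 6507 CPM in normal 1 to 5 and 4497, 4353, 12587, 709.6 and 1260.5 CPM in diabetic 1 to 5. Diabetic 3 was the highest of all 10 libraries and diabetic 4 the lowest. Krt14 had a log2 fold change of 0.24 ± 0.72 (SE, adjusted p = 0.85). Krt10, the keratin of differentiating cells, measured 5163, 3324, 2529, 9998 and 14114 CPM in normal 1 to 5 and 2647, 1229.7, 1996, 115 and 212 CPM in diabetic 1 to 5. Diabetic 4 and 5 were at least 10-fold below every normal library while diabetic 1 exceeded normal 3. Krt10 had a log2 fold change of -2.45 ± 0.83 (SE, adjusted p = 0.0815). Without diabetic 4 and 5 the median of the list was -0.21.

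Cornified envelope and barrier lipid genes behaved alike, with no call among 26, a median of -0.74 and -0.10 without diabetic 4 and 5. In edgeR 2 had an unadjusted p under 0.05, and DESeq2 called 1 lower. Lor, the loricrin of the envelope, measured 2909, 1171, 1316, 3196 and 5361 CPM in normal 1 to 5 and 4553, 3022, 1661, 126 and 304 CPM in diabetic 1 to 5. It ran from above the normal mean in diabetic 1 to the lowest value of all in diabetic 4, at a log2 fold change of -0.48 ± 0.81 (SE, adjusted p = 0.717). Flg and Ivl, which encode filaggrin and involucrin, were not called, at -1.21 ± 0.97 (SE, adjusted p = 0.424) and -1.80 ± 0.74 (SE, adjusted p = 0.134).

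Genes of keratinocytes at a wound edge were called higher in 6 of 26 cases and in 9 without diabetic 4 and 5. The median was 1.09 and 1.66 without them. From 3 to 9 rose with 1 library left out (3 without normal 1, 2, 3 or 4 or diabetic 2). Plaur, the urokinase receptor that migrating cells carry, measured 24.8, 3.63, 9.57, 7.71 and 4.81 CPM in normal 1 to 5 and 45.8, 122, 76.6, 82.3 and 459 CPM in diabetic 1 to 5. Diabetic 5 was highest, and the groups did not overlap. The mean log2(CPM + 0.5) of the whole list in diabetic 5 was 4.77, within the 4.018 to 4.795 of normal skin. Which cells carried Plaur was not tested. For Plaur, the log2 fold change of 3.97 ± 0.75 (SE, adjusted p = 0.0169) was 4.63 without normal 1 and 3.02 without diabetic 5. Fosl1, an AP-1 factor of migrating cells, changed by 2.69 ± 0.52 (SE, adjusted p = 0.0182), or 3.33 without normal 1, and Itga5, the fibronectin receptor chain, by 1.89 ± 0.32 (SE, adjusted p = 0.0117). Sprr2i rose (log2 fold change 2.99 ± 0.69, adjusted p = 0.0264) and was not called without normal 1, 2, 3 or 4 or diabetic 2 (adjusted p = 0.0514 to 0.0601). Hbegf and Mmp10 also rose, called in 3 and 2 of the 10 fits. The stress keratins were not called. Krt16 measured 63.1, 511, 155, 2082 and 1272 CPM in normal 1 to 5 and 1322, 1883, 3828, 193 and 349 CPM in diabetic 1 to 5. Normal 4 and 5 exceeded diabetic 4 and 5, and the log2 fold changes of Krt16 and its partner Krt6a were 0.93 ± 0.94 (SE, adjusted p = 0.534) and 1.04 ± 0.95 (SE, adjusted p = 0.486).

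Of 30 collagens and their processing enzymes 3 fell and none rose, with a median of -1.04. From 0 to 4 fell with 1 library left out (0 without normal 1, 2 or 3 or diabetic 2, 1 without normal 4 or diabetic 3), and DESeq2 called 13 lower. Col1a1, the chain of the main fibrillar collagen, measured 17493, 23409, 14419, 10719.5 and 10579 CPM in normal 1 to 5 and 3843, 576, 2904, 3431 and 90.2 CPM in diabetic 1 to 5. The lowest normal library was above the highest wound, diabetic 5 was over 6-fold below any other wound, and the log2 fold change was -2.82 ± 0.80 (SE, adjusted p = 0.049999), just within the threshold. It was called, with 1 library left out, only without diabetic 5 (otherwise adjusted p = 0.0564 to 0.102). Col3a1 measured 11863, 13658, 15040.0, 14689 and 9815 CPM in normal 1 to 5 and 4966, 929, 5426, 7658 and 137 CPM in diabetic 1 to 5, with no overlap, but was not called at -1.76 ± 0.77 (SE, adjusted p = 0.154). Col15a1, of basement membranes, changed by -1.75 ± 0.397 (SE, adjusted p = 0.0255) and Col6a1 by -1.40 ± 0.38 (SE, adjusted p = 0.0435). The former was not called without normal 1, 2 or 3 or diabetic 2 (adjusted p = 0.0505 to 0.0669), the latter called, with 1 library left out, only without normal 5 or diabetic 1 or 4 (otherwise adjusted p = 0.0572 to 0.102).

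Of 30 elastic fibre, proteoglycan and matricellular genes 1 rose and 5 fell (median -0.86). From 0 to 5 fell with 1 library left out (0 without normal 1, 2, 3 or 4 or diabetic 2, 2 without diabetic 1, 3 without diabetic 3), and DESeq2 called 10 lower. The rise was Thbs1, thrombospondin, which restrains vessels and activates TGF-beta. It measured 213, 128, 88.03, 47.8 and 52.5 CPM in normal 1 to 5 and 364, 2087, 1319, 1005 and 4013 CPM in diabetic 1 to 5. Each wound exceeded each normal library, diabetic 5 most. Thbs1 had a log2 fold change of 4.05 ± 0.68 (SE, adjusted p = 0.0112). Elastin, Eln, measured 464, 539.8, 364, 298 and 199 CPM in normal 1 to 5 and 156, 62.3, 154, 203 and 39.96 CPM in diabetic 1 to 5. Diabetic 4 was level with normal 5. For Eln, the log2 fold change of -1.61 ± 0.45 (SE, adjusted p = 0.0469) was called, with 1 library left out, only without normal 5 or diabetic 4 (otherwise adjusted p = 0.0535 to 0.102). The microfibril genes Mfap4 and Fbn2, the tenascin Tnxb and Hmcn2 also fell, each called in 2 to 5 of the 10 fits. Dcn and the wound tenascin Tnc were not called, at -0.02 ± 0.29 (SE, adjusted p = 0.976) and 1.25 ± 0.64 (SE, adjusted p = 0.212).

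Matrix proteases and their inhibitors had 9 rises and 1 fall among 26 (median 0.53). The rises numbered 4 to 9 with 1 library left out (4 without normal 4, 5 without normal 2 or 5 or diabetic 2). Adam8, a protease of activated leukocytes, measured 55.1, 17.4, 24.04, 28.1 and 30.9 CPM in normal 1 to 5 and 146, 270.5, 325, 293 and 405 CPM in diabetic 1 to 5. The groups were far apart, at a log2 fold change of 3.22 ± 0.35 (SE, adjusted p = 0.00344). Timp1, the metalloprotease inhibitor, rose, at 18.03, 29.1, 29.7, 20.3 and 14.6 CPM in normal 1 to 5 and 104, 92.7, 56.9, 218 and 332 CPM in diabetic 1 to 5 and a log2 fold change of 2.85 ± 0.46 (SE, adjusted p = 0.0108). The lysosomal protease Ctsl changed by 1.95 ± 0.34 (SE, adjusted p = 0.0117). The gelatinase Mmp9 rose with overlapping groups (log2 fold change 2.04 ± 0.57, adjusted p = 0.0481) and was called, with 1 library left out, only without diabetic 1 or 4 (otherwise adjusted p = 0.0542 to 0.101). Adamts2, which trims procollagen, was the 1 fall (log2 fold change -1.099 ± 0.27, adjusted p = 0.0313), called, with 1 library left out, only without normal 5 or diabetic 1, 3 or 4 (otherwise adjusted p = 0.0522 to 0.083).

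Of 25 fibroblast and myofibroblast genes 4 fell and none rose, with a median of -0.77. From 0 to 3 fell with 1 library left out (0 without normal 1, 3 or 4 or diabetic 2, 1 without normal 2, 2 without normal 5 or diabetic 4 or 5), and DESeq2 called 8 lower. Tgfb3, a growth factor linked to scarless repair, measured 69.04, 63.7, 57.5, 29.4 and 17.8 CPM in normal 1 to 5 and 15.3, 14.9, 13.5, 14.1 and 2.81 CPM in diabetic 1 to 5. No wound reached a normal library, with diabetic 5 lowest. For Tgfb3, the log2 fold change of -1.97 ± 0.49 (SE, adjusted p = 0.0341) was not called without normal 1, 2, 3 or 4 or diabetic 2 (adjusted p = 0.0523 to 0.075). Clec3b (log2 fold change -2.54 ± 0.65, adjusted p = 0.0363), Lrrc15 (log2 fold change -3.83 ± 1.06, adjusted p = 0.047) and Dpp4 (log2 fold change -1.87 ± 0.53, adjusted p = 0.0492), markers of dermal fibroblast states, were the other falls. Lrrc15 was called, with 1 library left out, only without diabetic 3 (otherwise adjusted p = 0.0593 to 0.0926), Clec3b called, with 1 library left out, only without normal 2 or 5 or diabetic 1 or 4 (otherwise adjusted p = 0.0504 to 0.074). Dpp4 was called, with 1 library left out, only without diabetic 3 or 5 (otherwise adjusted p = 0.0625 to 0.108). Pdgfra, carried by most dermal fibroblasts, and the contractile gene Acta2 were not called, at 0.201 ± 0.34 (SE, adjusted p = 0.721) and -0.52 ± 0.29 (SE, adjusted p = 0.253).

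Vessel genes included 5 rises and no falls among 28 (median 0.78, 0.34 without diabetic 4 and 5). From 3 to 7 rose with 1 library left out (3 without normal 1, 2, 4 or 5 or diabetic 2), and DESeq2 called 10 higher. Angpt2, which loosens vessel walls, measured 9.45, 7.33, 6.92, 6.08 and 1.401 CPM in normal 1 to 5 and 40.7, 73.02, 15.9, 51.05 and 151 CPM in diabetic 1 to 5. Diabetic 5 was highest and diabetic 3 lowest of the wounds, and the groups did not overlap. Angpt2 had a log2 fold change of 3.41 ± 0.62 (SE, adjusted p = 0.0152). The placental growth factor Pgf changed by 2.93 ± 0.58 (SE, adjusted p = 0.0188) and the endothelial sialomucin Emcn by 1.97 ± 0.401 (SE, adjusted p = 0.0198). Selp, the P-selectin of platelets and endothelium that leukocytes roll on, and the peptide Apln rose (log2 fold change 2.63 ± 0.62, adjusted p = 0.0294 and log2 fold change 1.99 ± 0.47, adjusted p = 0.0295). Selp was called, with 1 library left out, only without normal 3 or diabetic 1, 3 or 4 (otherwise adjusted p = 0.0552 to 0.0673) and Apln called, with 1 library left out, only without diabetic 1, 3, 4 or 5 (otherwise adjusted p = 0.0507 to 0.0687). Vegfa, the main driver of vessel growth, was not called, at 35.7, 20.96, 44.2, 62.8 and 46.7 CPM in normal 1 to 5 and 27.8, 73.9, 133, 66.7 and 128 CPM in diabetic 1 to 5 and a log2 fold change of 1.05 ± 0.397 (SE, adjusted p = 0.109). Diabetic 1 lay within the normal range. Nor were the endothelial markers Pecam1 and Kdr, at 0.94 ± 0.32 (SE, adjusted p = 0.0826) and 0.54 ± 0.36 (SE, adjusted p = 0.345).

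The nerve list had few calls. Of 20 Schwann cell and nerve genes 1 rose, Fabp7 of immature glia (log2 fold change 3.51 ± 0.87, adjusted p = 0.033), not called without normal 1, 2 or 3 or diabetic 2 or 4 (adjusted p = 0.0508 to 0.0798). The median was -0.18, and the glial factor Sox10 was not called, at -0.54 ± 0.45 (SE, adjusted p = 0.446). Of 23 muscle contraction genes 4 fell (median -0.84), a share above the 3.81% of all genes called lower. From 2 to 6 fell with 1 library left out (2 without normal 1, 2, 3 or 4 or diabetic 2 or 5), and DESeq2 called 7 lower. Mb, the oxygen-storing myoglobin, measured 176, 103, 161, 441 and 157 CPM in normal 1 to 5 and 49.7, 17.5, 17.5, 34.4 and 9.38 CPM in diabetic 1 to 5. Normal 4 was highest and no wound reached a normal library, at a log2 fold change of -2.99 ± 0.51 (SE, adjusted p = 0.0119). The calcium store protein Casq1 (log2 fold change -2.28 ± 0.56, adjusted p = 0.0323) and the fast myosin Myh1 (log2 fold change -2.76 ± 0.73, adjusted p = 0.0417) overlapped. Casq1 was called, with 1 library left out, only without normal 5 or diabetic 1, 3 or 4 (otherwise adjusted p = 0.056 to 0.0709) and Myh1 called, with 1 library left out, only without normal 5 or diabetic 1 (otherwise adjusted p = 0.0586 to 0.0939). Acta1 and Ckm, sarcomere actin and creatine kinase, were not called, at -1.34 ± 0.62 (SE, adjusted p = 0.173) and -0.16 ± 0.67 (SE, adjusted p = 0.896).

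Of 21 muscle regeneration and denervation genes 1 fell, the perinatal myosin Myh8 (median -1.50), and DESeq2 called 6 lower. It measured 30.5, 1393, 31.6, 11.2 and 5.73 CPM in normal 1 to 5 and 10.9, 0.509, 2.53, 0.681 and 0.896 CPM in diabetic 1 to 5. Normal 2 alone held 1393 CPM. The log2 fold change of -6.599 ± 1.80 (SE, adjusted p = 0.0445) was -2.62 without normal 2 and -8.07 without diabetic 1, and the gene was called, with 1 library left out, only without normal 5 or diabetic 1 (otherwise adjusted p = 0.0561 to 0.115). The regeneration factor Myog and the receptor Chrna1, which rises in denervated muscle, were high in normal 1 and 3 and not called, at -1.66 ± 0.89 (SE, adjusted p = 0.237) and -1.94 ± 0.83 (SE, adjusted p = 0.148).

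Genes of oxidative stress defence rose. Of 24 NRF2 targets and related genes 13 were called higher and none lower, with a median of 1.24. From 7 to 14 rose with 1 library left out (7 without normal 4 or diabetic 2, 8 without normal 2). Slc7a11, the cystine importer that feeds glutathione synthesis, measured 13.1, 16.8, 4.78, 23.6 and 27.8 CPM in normal 1 to 5 and 31.8, 179.6, 109.7, 84.7 and 348 CPM in diabetic 1 to 5. Diabetic 5 was highest, and diabetic 1 only just above normal 5. Slc7a11 had a log2 fold change of 3.15 ± 0.62 (SE, adjusted p = 0.019). Hmox1, which breaks down haem, measured 124, 49.5, 222, 125 and 65.98 CPM in normal 1 to 5 and 516, 573, 572, 1247 and 345 CPM in diabetic 1 to 5. All wounds were above all normal libraries, diabetic 4 most, at 2.48 ± 0.45 (SE, adjusted p = 0.0139). Glutathione reductase Gsr changed by 2.68 ± 0.46 (SE, adjusted p = 0.0117), thioredoxin Txn1 by 1.37 ± 0.25 (SE, adjusted p = 0.0156) and the growth regulator Osgin1 by 2.07 ± 0.401 (SE, adjusted p = 0.0178). The quinone reductase Nqo1 rose (log2 fold change 1.47 ± 0.38, adjusted p = 0.0367) but was called, with 1 library left out, only without diabetic 4 or 5 (otherwise adjusted p = 0.0502 to 0.0841). The iron-storing ferritin chains Fth1 and Ftl1 and the metallothioneins Mt1 and Mt2 were also among the rises, each called in 5 to 10 of the 10 fits.

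Hypoxia and glycolysis genes rose in 6 of 25 cases with none lower (median 0.79). From 2 to 7 rose with 1 library left out (2 without diabetic 2, 3 without normal 1 or 3), and DESeq2 called 12 higher. Slc2a1, the basal glucose transporter, measured 65.9, 76.3, 55.3, 131 and 108 CPM in normal 1 to 5 and 263, 226, 363, 137 and 187 CPM in diabetic 1 to 5. Diabetic 3 was highest and diabetic 4 barely above normal 4. For Slc2a1, the log2 fold change of 1.45 ± 0.31 (SE, adjusted p = 0.023) was not called without normal 1 (adjusted p = 0.0534). Hif1a, the oxygen-sensing factor, changed by 1.25 ± 0.28 (SE, adjusted p = 0.0251) and was not called without normal 1 or 3 or diabetic 2 or 5 (adjusted p = 0.0504 to 0.0573). Its target Car9 was not called, at 1.16 ± 0.71 (SE, adjusted p = 0.294). Of the 6 rises, only that of Gapdh was called whichever library was left out, at 3.51 ± 0.698 (SE, adjusted p = 0.019), or 2.77 without diabetic 1. At 4.06, 11.7, 5.88, 6.58 and 5.73 CPM in normal 1 to 5, however, Gapdh was counted far below what is usual for this enzyme. It has many near-identical pseudogene copies, and the sources used here do not say how shared reads were counted.

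None of 26 nuclear genes of oxidative phosphorylation was called, at a median of -0.09, with 5 at an unadjusted p under 0.05 in edgeR and 1 called higher by DESeq2. Genes encoded in the mitochondria were not part of this list. Cox4i1 and Ndufs1, subunits of complexes at either end of the chain, stood at 0.73 ± 0.23 (SE, adjusted p = 0.0686) and -0.26 ± 0.17 (SE, adjusted p = 0.343).

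Of 24 unfolded protein and integrated stress response genes 3 rose and 1 fell (median 0.25). From 2 to 4 rose with 1 library left out, and DESeq2 called 5 higher. Ddit4, a stress-induced brake on mTOR, measured 75.9, 27.02, 76.7, 47.4 and 52.7 CPM in normal 1 to 5 and 256, 255, 145, 391 and 454 CPM in diabetic 1 to 5. Diabetic 3 was the lowest wound but still above normal skin. Ddit4 had a log2 fold change of 2.44 ± 0.36 (SE, adjusted p = 0.0101). The phosphatase subunit Ppp1r15a changed by 2.595 ± 0.50 (SE, adjusted p = 0.0176). Atf4, the central factor of the integrated stress response, rose (log2 fold change 1.28 ± 0.35, adjusted p = 0.0463) and its relative Atf5 fell (log2 fold change -1.41 ± 0.38, adjusted p = 0.0417). Atf4 was called, with 1 library left out, only without diabetic 3 or 4 (otherwise adjusted p = 0.0631 to 0.0935) and Atf5 called, with 1 library left out, only without normal 2 or diabetic 4 or 5 (otherwise adjusted p = 0.0567 to 0.0903). The chaperone Hspa5 and the factor Ddit3 were not called, at 0.25 ± 0.23 (SE, adjusted p = 0.48) and 0.48 ± 0.27 (SE, adjusted p = 0.25).

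Immediate early genes rose in 8 of 22 cases with none lower (median 1.32). From 5 to 12 rose with 1 library left out (5 without normal 2 or 4 or diabetic 2), and DESeq2 called 14 higher. Junb, an AP-1 factor, measured 240.3, 70.1, 148, 133 and 192 CPM in normal 1 to 5 and 661, 903, 408, 352 and 1299.6 CPM in diabetic 1 to 5. Diabetic 4, the lowest wound, was above normal skin. Junb had a log2 fold change of 2.23 ± 0.42 (SE, adjusted p = 0.0168). Csrnp1, Maff and Klf6 changed by 3.02 ± 0.49 (SE, adjusted p = 0.0108), 2.06 ± 0.38 (SE, adjusted p = 0.0159) and 1.53 ± 0.28 (SE, adjusted p = 0.0156). Fos and Egr1 were not called, at 1.23 ± 0.53 (SE, adjusted p = 0.147) and 1.31 ± 0.69 (SE, adjusted p = 0.228). Normal 1 had the highest Fos of its group, 108, 31.5, 35.97, 12.1 and 18.1 CPM in normal 1 to 5, and the change was 1.995 without normal 1.

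Clock genes moved in both directions, 6 higher and 2 lower of 19 (median 0.36). From 2 to 7 rose with 1 library left out (2 without normal 1, 2, 3 or 4 or diabetic 2, 3 without diabetic 1 or 5). Nfil3 measured 29.4, 31.03, 31.1, 20.9 and 24.98 CPM in normal 1 to 5 and 129, 148, 52.9, 146 and 204 CPM in diabetic 1 to 5. The groups did not overlap, diabetic 3 was lowest of the wounds, and the log2 fold change of this clock-output repressor was 2.31 ± 0.31 (SE, adjusted p = 0.00735). Bhlhe40 changed by 1.81 ± 0.29 (SE, adjusted p = 0.0106), and the core activator Arntl by 0.92 ± 0.24 (SE, adjusted p = 0.0378), called, with 1 library left out, only without normal 5 or diabetic 3 or 4 (otherwise adjusted p = 0.053 to 0.0835). Dbp, an output gene opposed to Nfil3, fell, averaging 20.3 ± 5.61 CPM in normal skin and 7.81 ± 2.97 CPM in diabetic wounds, a log2 fold change of -1.36 ± 0.31 (SE, adjusted p = 0.0264), not called without normal 1, 3 or 4 or diabetic 1 (adjusted p = 0.0509 to 0.0625), and the clock repressor Per3 fell (log2 fold change -0.92 ± 0.26, adjusted p = 0.0476), not called in any fit that left out 1 library (adjusted p = 0.0528 to 0.113). Per2 was not called, at 1.28 ± 0.58 (SE, adjusted p = 0.166). The sources used here do not give the hour of sampling, and its part in these values was not tested.

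Glucocorticoid targets rose in 8 of 18 cases with none lower (median 1.18). From 2 to 10 rose with 1 library left out (2 without normal 4, 4 without normal 2 or diabetic 2). Mt1, a zinc-binding protein that is also counted among the stress genes, measured 134, 41.7, 306, 211 and 203 CPM in normal 1 to 5 and 867, 1607, 308, 1963 and 2989.6 CPM in diabetic 1 to 5. Diabetic 3 was level with the highest normal library and the other wounds well above, at 3.14 ± 0.63 (SE, adjusted p = 0.0191). Hsd11b1, the enzyme that regenerates active glucocorticoid, measured 19.2, 8.602, 19.3, 18 and 14.3 CPM in normal 1 to 5 and 55.6, 109, 26.8, 94.04 and 119 CPM in diabetic 1 to 5. All wounds were above all normal libraries, at 2.36 ± 0.39 (SE, adjusted p = 0.0109). The most used glucocorticoid markers Fkbp5 and Tsc22d3 were not called, at 0.76 ± 0.28 (SE, adjusted p = 0.102) and 0.78 ± 0.502 (SE, adjusted p = 0.318). The called genes Lcn2, Dusp1, Per1 and Mt2 of this list, called in 7, 7, 2 and 8 of the 10 fits, also belong to other lists above.

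Of 19 p53 targets and senescence genes 5 rose and none fell (median 0.92). From 0 to 6 rose with 1 library left out (0 without normal 4, 1 without normal 3 or diabetic 2 or 5, 2 without normal 1 or 2 or diabetic 1, 3 without normal 5). These were Trp53inp1 (log2 fold change 1.78 ± 0.37, adjusted p = 0.0207), the cell death genes Bax (log2 fold change 1.45 ± 0.36, adjusted p = 0.033) and Pmaip1 (log2 fold change 1.88 ± 0.47, adjusted p = 0.0341), the p53 inhibitor Mdm2 (log2 fold change 1.19 ± 0.299, adjusted p = 0.035) and the kinase Plk3 (log2 fold change 1.49 ± 0.39, adjusted p = 0.0409). Trp53inp1 was not called without normal 4 (adjusted p = 0.0512), Bax not called without normal 1, 3 or 4 or diabetic 2 or 5 (adjusted p = 0.0526 to 0.0709). Pmaip1 was called, with 1 library left out, only without normal 5 or diabetic 4 (otherwise adjusted p = 0.0502 to 0.0729), Mdm2 called, with 1 library left out, only without normal 1 or diabetic 3 or 4 (otherwise adjusted p = 0.0521 to 0.083). Plk3 was called, with 1 library left out, only without diabetic 3 or 4 (otherwise adjusted p = 0.0555 to 0.0842). The cycle inhibitor Cdkn1a was not called, at 0.95 ± 0.32 (SE, adjusted p = 0.0826).

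Proliferation genes gave no call among 28 tested, with a median of -0.21. None reached an unadjusted p under 0.05 (edgeR), and DESeq2 called none. Mki67, a marker of dividing cells, measured 82.8, 281, 94.3, 256 and 431 CPM in normal 1 to 5 and 149.7, 48.4, 177, 85.6 and 27.2 CPM in diabetic 1 to 5. Both groups spread widely and overlapped, at a log2 fold change of -1.21 ± 0.57 (SE, adjusted p = 0.181). The mitotic cyclin Ccnb1 stood at -0.21 ± 0.67 (SE, adjusted p = 0.859).

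Wounds of diabetic mice were finally set against the 5 wounds of healthy mice, called healthy 1 to 5, in a fit of those 10 libraries. It shares the 5 diabetic libraries with the comparison above, so a gene called in both has no independent support from the second. Of 16268 genes, 908 (5.58%) were called, 540 higher and 368 lower in diabetic wounds. The count depended on single libraries: it was 1 without healthy 4, healthy 5 or diabetic 2, 6 without healthy 3, 14 without healthy 1, 42 without diabetic 1, 47 without healthy 2, 376 without diabetic 5, 1704 without diabetic 4 and 2718 without diabetic 3. Rnase2b, a ribonuclease gene, was called whichever library was left out, and each gene named from this fit below was lost in at least 3 of the 10 fits.

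Of the 20 leading genes, 10 were called against healthy wounds. Higher were Chil3, at 3.899 ± 0.75 (SE, adjusted p = 0.0342), Ppbp, at 4.34 ± 0.52 (SE, adjusted p = 0.0169), and Mmp8, at 2.13 ± 0.44 (SE, adjusted p = 0.0347). Lower were Lep, Golga7b, Hhip, Ky, Lhx2, Col6a6 and Lgals12. Lep measured 11.3, 29.96, 17.4, 7.92 and 2.12 CPM in healthy 1 to 5, above every diabetic wound, with a log2 fold change of -5.82 ± 1.22 (SE, adjusted p = 0.035). Lhx2 measured 2.52, 45.3, 4.83, 10.6 and 5.45 CPM in healthy 1 to 5, again above all diabetic wounds, with -4.53 ± 0.98 (SE, adjusted p = 0.0373). For Cxcl5, at 98.8, 41.8, 309, 16.4 and 44.6 CPM in healthy 1 to 5, the wounds overlapped and the difference of 1.90 ± 0.82 (SE, adjusted p = 0.152) was not called. Arg1, at 0.87 ± 0.59 (SE, adjusted p = 0.331), and Thrsp, at -1.76 ± 0.67 (SE, adjusted p = 0.115), were not called either.

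Genes that changed in diabetic wounds against normal skin included some for which no difference between wounds was shown. S100a9 was at 1988, 320.4, 760.1, 827 and 1106 CPM in healthy 1 to 5, overlapping the diabetic wounds, with -0.25 ± 0.51 (SE, adjusted p = 0.763). Fasn was at 194, 381, 253, 307 and 189 CPM there, with -0.12 ± 0.26 (SE, adjusted p = 0.784). A p that misses the threshold does not show that wounds of diabetic and healthy mice were alike. Pf4 differed, at 131, 96.2, 187, 105 and 95.3 CPM in healthy 1 to 5 and 2.201 ± 0.25 (SE, adjusted p = 0.0161), with all diabetic wounds higher. Igfbp5 and Cd4 were lower in all diabetic than in all healthy wounds, with -2.35 ± 0.51 (SE, adjusted p = 0.0363) and -3.302 ± 0.72 (SE, adjusted p = 0.0375).

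**Figure D5:**
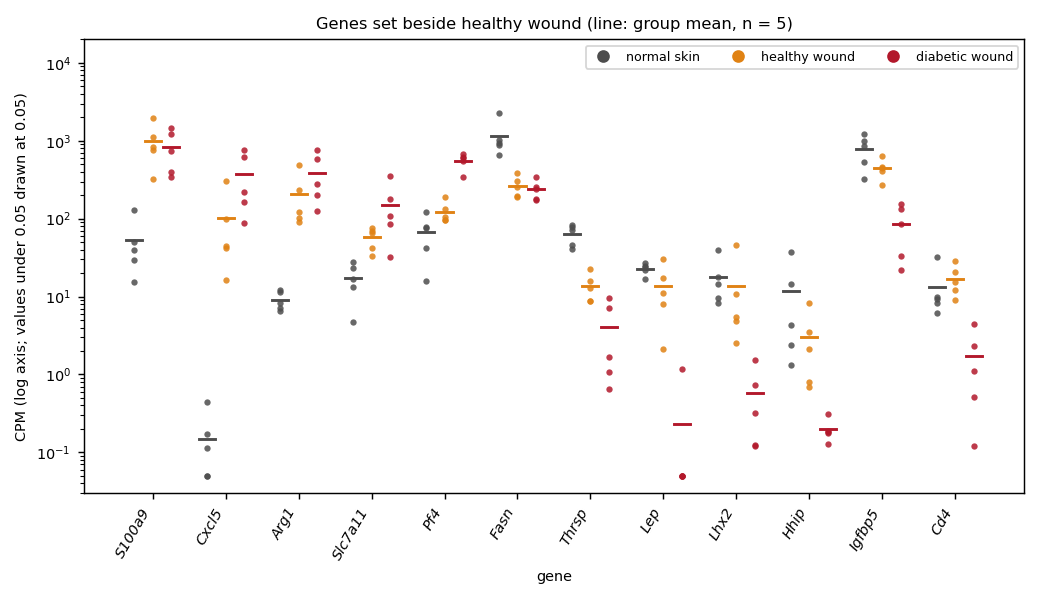
CPM on a log axis in the 5 libraries each of normal skin (grey), healthy wound (orange) and diabetic wound (red), with lines at the group means, for 12 genes chosen after their values were seen; values under 0.05 are drawn at 0.05. S100a9 and Fasn overlap between the wound groups, while Lep, Lhx2, Hhip, Igfbp5 and Cd4 are lower in all diabetic than in all healthy wounds.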

How the data were processed

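The deposited table holds read counts, as whole numbers, of each gene in 15 libraries of poly-A RNA, made with a kit that does not mark strand, per the labels. Reads of overlapping or antisense genes cannot be told apart. The sources used here do not give the aligner, counting program or genome build, and coordinates are those of the table. The 5 diabetic columns, numbered 5 to 9 in the table, are diabetic 1 to 5 in that order. CPM is a count divided by the library total. Counts of the 10 libraries were fitted with edgeR 4.0.16 in R 4.3.3 (filterByExpr, TMM scaling, robust quasi-likelihood F-test, no covariate), and p-values were Benjamini-Hochberg adjusted over all genes tested, with a threshold of 0.05. The SE of a log2 fold change is its size over the square root of F. Replicates differed by more than counting noise and were kept apart.

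Leading genes followed the rule given with them; of each list, set members and up to 4 called in all leave-one-out fits with the smallest p were named, and any called against the list's direction. The groups, gene lists and members were chosen with earlier results of these data known. Alternatives were 3 other scalings (upper-quartile, RLE, library size), other filters, DESeq2 1.42.0, limma 3.58.1, a fit over all 15 libraries, a replicate block, a minimum fold and leaving out libraries. Counts per library limit precision to counting error plus the spread between 5 libraries. No sequences were used, and some members of the lists are not reported here.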

Additional observations from a re-analysis of the deposited data

Results flagged for a closer look

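The mean log2 CPM of each list, the 20 leading genes, the library totals and the mitochondrial share were checked within each group of 5 libraries, 120 sets of values in all. In 5 of them 1 library lay far from the others, the gap to its neighbour being over 0.71 of the group's range. Chance alone gives about 5% of sets. Normal 1 was high in the mean log2 CPM of neutrophil-attracting chemokines and granulocyte growth factors, with a gap of 0.796 of the range. Normal 5 was high in follicle stem cell, Hedgehog and WNT target genes (0.781). Normal 2 was low in NRF2 and oxidative stress genes (0.908) and in unfolded protein and integrated stress response genes (0.861). Diabetic 3 was high in Lep (1), the other 4 wounds having no read of it.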

How the results depend on the processing

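No called named gene changed sign under any alternative run. Of 58 genes chosen for naming that were not called, 16 changed sign under at least 1, uncalled there too, such as Krt14 (0.24, or -0.55 without diabetic 3) and Lor (-0.48, or 0.21 without diabetic 4 and 5). Against 1430 genes called (815 higher, 615 lower), DESeq2 called 3279 (1710 and 1569), limma-voom with quality weights 3759 (1911 and 1848) and the fit over all 15 libraries 3272 (1827 and 1445). A minimum log2 fold change of 1 left 45 (30 and 15), and leaving out diabetic 4 and 5 together left 569 (351 and 218). With 1 library left out the counts were 433 to 1768 (270 to 987 higher, 143 to 781 lower). With a replicate block 3 genes were called, 3 higher and 0 lower. The labels do not say that the numbers pair the libraries. The deviations of same-numbered libraries correlated at -0.239 to 0.008, which cannot settle whether they were paired. Against healthy wounds, 908 calls became 364 with no filter on low counts, 3130 with DESeq2, 1567 over all 15 libraries, 1 with a replicate block and 1 to 2718 with 1 library left out. Of 183 called genes chosen for naming, 181 stayed called with RLE scaling, 177 with upper-quartile, 179 with library-size scaling, 130 with no filter, 181 with DESeq2, 154 with limma-voom, 183 over all 15 libraries, 23 with a minimum log2 fold change of 1, 99 without diabetic 4 and 5, 3 with a replicate block and 98 to 160 with 1 library left out. The cause of these shifts was not tested. For Lep, Il19 and the hair keratins, reads were few in 1 of the groups, and depth limits how low a level can be measured there. At 3 reads over 5 wounds the floor is 0.0370 CPM. The hair keratins were few in the wounds only, and Krt71 had 44043 reads in normal skin.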

Other observations

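Gene families picked by symbol extend the lists. Of 82 cytosolic ribosomal protein genes, 78 had positive log2 fold changes, with a median of 0.55, but edgeR called none and DESeq2 called 16 higher. Of 43 proteasome subunits 4 rose and none fell (median 0.41), among them Psmc1 (log2 fold change 0.77 ± 0.17, adjusted p = 0.0253), not called without normal 3 or 4 or diabetic 2 (adjusted p = 0.0521 to 0.0598). Of 263 solute carriers 17 rose (6.46%) and 12 fell (4.56%), shares near those of all genes. The taurine transporter Slc6a6 measured 279.8, 238, 262, 189 and 195 CPM in normal 1 to 5 and 985, 968, 413, 533 and 1061 CPM in diabetic 1 to 5, with no overlap and a log2 fold change of 1.78 ± 0.303 (SE, adjusted p = 0.0117). The erythroid anion exchanger Slc4a1 averaged 3.65 ± 1.11 CPM in normal skin and 0.251 ± 0.25 CPM in diabetic wounds and fell (log2 fold change -3.82 ± 0.73, adjusted p = 0.0169, or -4.49 without diabetic 2). The red cell markers did not follow it, and their groups overlapped. In normal skin and diabetic wounds, Hba-a1 was at 114 to 442 and 248 to 657 CPM and Hbb-bs at 104 to 548 and 180 to 695 CPM. Hba-a2 was at 9.99 to 129 and 17.4 to 59.6 CPM and Hbb-bt at 12.4 to 64.1 and 11.2 to 47.6 CPM. Collagen IV chains of specialised basement membranes, Col4a3 and Col4a4, fell, with log2 fold changes of -2.87 ± 0.54 (SE, adjusted p = 0.0165) and -3.21 ± 0.49 (SE, adjusted p = 0.0101). Of 29 Hox genes 3 had positive changes and 1 was called lower (3.45%, near the 3.81% of all genes), and none of 21 late cornified envelope genes was called by edgeR or DESeq2.

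Gene models with no symbol in the table gave more rises than genes did overall. Of 200 tested, 36 (18%) were called higher and 3 (1.5%) lower, against 5.04% and 3.81% of all genes, and 15 of the 36 held whichever library was left out. The number called higher was 18 to 40 with 1 library left out (18 without normal 4, 19 without diabetic 2), 17 without diabetic 4 and 5, and 55 by DESeq2. Of the 36, 20 had a length equal to their genomic span, as an unspliced model has, against 71 of the 200. One on the plus strand of chromosome 1, 170941467 to 170950110, rose from 4.16 ± 1.97 to 50.8 ± 26.0 CPM (mean ± SD, n = 5 and 5), a log2 fold change of 3.62 ± 0.45 (SE, edgeR adjusted p = 0.00656).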
